A study of Mus musculus with 4 samples.

Results

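The 9 genes described here make, carry out or restrain signalling by bone morphogenetic proteins (BMPs): Id1, Id2, Id3 and Id4, which encode the inhibitor of DNA binding (ID) proteins, Atoh8, which encodes a basic helix-loop-helix (bHLH) transcription factor, the ligand genes Bmp2 and Bmp4, and the secreted antagonist genes Grem1 (gremlin 1) and Nog (noggin). They were taken by name, as all probe sets of the arrays that carry a single gene symbol out of these 9. Each had 1 such probe set, so 9 of 22180 named genes are described. RNA came from mesenchymal stem cells derived from mouse bone marrow and was hybridised to 4 Affymetrix arrays, 1 for each of 4 groups. The groups were Snail1-WT cells and Snail1-KO cells, which lack the transcriptional repressor Snail1 (gene Snai1), each either untreated or given TGF-b1 for 2 h. The sources used here do not state how the deletion was made, the dose of TGF-b1 or how many animals or cultures stand behind each array. With 1 array per group no group could be tested against another, and no p-value is given.

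BMP ligands are secreted relatives of TGF-b that bind paired receptor kinases, and these phosphorylate SMAD1, SMAD5 and SMAD9, which enter the nucleus with SMAD4. The Id genes are among the direct targets of these SMADs, and the ID proteins in turn bind bHLH factors of the E protein class and keep them off DNA. Gremlin and noggin bind BMPs outside the cell and block access to the receptors. In marrow stroma BMP signalling is known for driving the commitment of progenitors to bone and cartilage, and TGF-b is known to lower or raise Id genes depending on the cell and on the time after treatment.

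Promoter sequences of 6 of the 9 genes, from 250 bases before to 50 bases after the start site, were matched by symbol in RefSeq (GRCm38.p6). Id1, Bmp2 and Nog had no entry. Those of Bmp4, Grem1 and Id2 are shown because these genes had the largest response to TGF-b1, the largest genotype difference and the largest difference between the responses. They are written 5′ to 3′ on the strand of the gene. Capitals mark CAGGTG, the E2-box that Snail1 is known to bind, or GGCGCC, a GC-rich sequence known as a site of BMP-activated SMADs. Bmp4 lies on the minus strand at chr14:46390620-46390919, Grem1 on the minus strand at chr2:113758599-113758898 and Id2 on the minus strand at chr12:25096043-25096342.
Bmp4: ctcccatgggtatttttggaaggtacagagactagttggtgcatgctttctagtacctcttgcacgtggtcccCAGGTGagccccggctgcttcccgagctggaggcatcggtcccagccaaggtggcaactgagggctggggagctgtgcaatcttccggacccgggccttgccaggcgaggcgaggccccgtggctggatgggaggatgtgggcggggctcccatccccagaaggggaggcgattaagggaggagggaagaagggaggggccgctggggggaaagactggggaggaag
Grem1: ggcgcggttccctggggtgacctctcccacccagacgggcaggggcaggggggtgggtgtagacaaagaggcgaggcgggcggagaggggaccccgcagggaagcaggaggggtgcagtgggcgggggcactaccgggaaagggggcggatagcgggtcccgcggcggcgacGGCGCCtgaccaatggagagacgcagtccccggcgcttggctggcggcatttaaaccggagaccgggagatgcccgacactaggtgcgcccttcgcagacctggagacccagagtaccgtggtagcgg
Id2: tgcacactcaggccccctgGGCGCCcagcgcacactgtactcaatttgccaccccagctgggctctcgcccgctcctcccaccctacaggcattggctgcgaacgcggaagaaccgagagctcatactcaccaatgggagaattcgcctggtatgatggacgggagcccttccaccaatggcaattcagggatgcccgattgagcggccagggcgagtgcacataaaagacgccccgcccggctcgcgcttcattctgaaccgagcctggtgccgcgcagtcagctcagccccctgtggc

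On both strands, CAGGTG (or its complement CACCTG) was found in 1 of the 6 promoters, that of Bmp4, where it begins at position -177. It was present in 20.2% of the 32851 promoters of the table. GGCGCC, which is its own complement, was found in Id2 (at -231), Id4 (at -148) and Grem1 (at -78), against 11.9% of all promoters. CAGACA (or TGTCTG), the core of the TGF-b-responsive CAGA box, was in none of the 6 and in 21% of all. The 6 promoters had a GC content between 60% (Id3) and 73.3% (Id4), above the median of 52.7% over all promoters of the table, and the shares of all promoters given here are not matched on GC content. These matches describe the letters in 300 bases and are not evidence of binding.

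Levels are RMA log2 values, on which a difference of 1 is 2-fold, and they are compared between arrays for the same probe set only. The 60% of genes with the highest mean level, 13308 genes with means of at least 4.51, served as the set of analysed genes. Of the 9 genes, 8 were in it and Bmp2 was not. As a measure of error, a noise SD of the difference between 2 arrays was taken from the 500 analysed genes nearest in level, as the spread of the disagreement between the responses of both genotypes. True differences between the responses enlarge it, and any deviation common to the arrays of a genotype, or to the treated arrays, is missing from it. The targeted gene Snai1 measured 6.69 and 7.63 in untreated and treated Snail1-WT cells and 5.09 and 5.34 in Snail1-KO cells, the order its labels call for. Of 9 measured mesenchymal stem cell markers 7 were in the analysed set, among them Pdgfra, Pdgfrb and Cxcl12, while Nt5e and Lepr were below it on average. Their summed level lay between 72.6 and 75 on the 4 arrays, but single markers moved in opposite directions within it. With TGF-b1 Pdgfra went from 11.10 to 10.62 in Snail1-WT and from 10.72 to 10.13 in Snail1-KO cells. Pdgfrb went from 10.96 to 11.59 and from 10.66 to 11.35. In each response 5 of the 9 were above 0 and 4 below. Of 7 endothelial markers 3 were in the analysed set, with a median level between 4.33 and 4.46 on the arrays, and of 7 haematopoietic markers 4, with a median between 4.22 and 4.76. Ptprc, which marks all leukocytes, lay between 3.15 and 3.78, while the haematopoietic markers Cd68 and Cd14 lay between 6.05 and 6.23 and between 5.53 and 6.59. Of 5 osteoblast markers 1 was in the analysed set, Alpl, which measured 6.57 and 6.67 in Snail1-WT and 4.78 and 4.85 in Snail1-KO cells. Chondrocyte (2 of 5 in the set) and adipocyte markers (3 of 5) had medians of at most 4.55 and 5.30. One adipocyte marker, Cebpa, measured 5.94 and 6.12 in Snail1-WT cells and 5.28 and 6.34 in Snail1-KO cells, so its untreated Snail1-KO array was the low one. Over the 4 arrays the summed level ranged from 29.8 to 30.3 for the endothelial, 31.8 to 32.9 for the haematopoietic, 20.8 to 23 for the osteoblast, 22 to 23.3 for the chondrocyte and 24.2 to 25 for the adipocyte list. In bulk RNA, fewer cells of a type and less RNA per cell cannot be told apart.

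**Figure D1:**
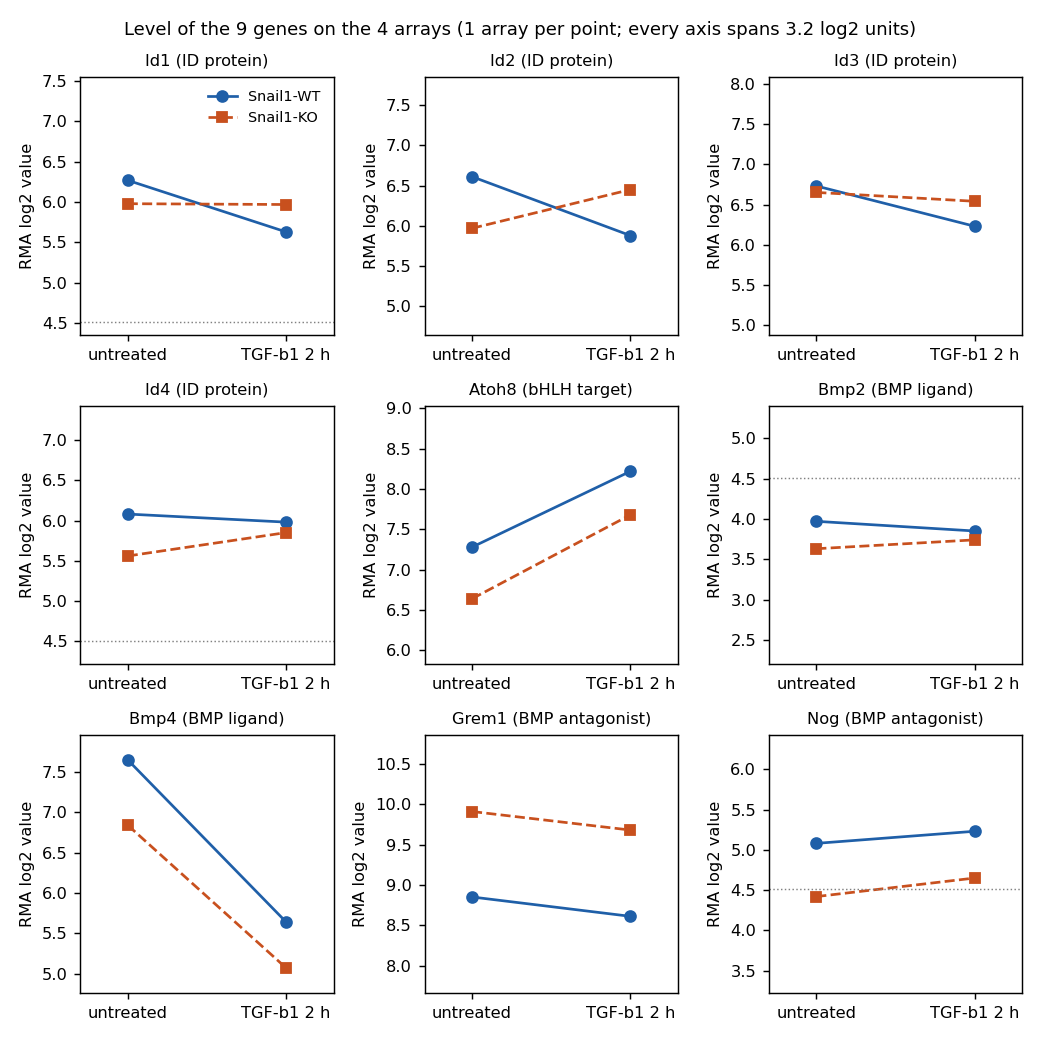
RMA log2 value of each of the 9 genes (y axis) in untreated cells and after 2 h of TGF-b1 (x axis), in Snail1-WT cells (blue circles, solid lines) and Snail1-KO cells (orange squares, dashed lines), 1 array per point and no error bars. The dotted line, where in range, is 4.51, the lowest mean of the analysed genes. The lines of Id1, Id2 and Id3 cross between the genotypes, that of Id3 from an untreated difference of -0.08, within its noise SD of 0.15. Those of Bmp4 and Atoh8 run side by side, and Grem1 stays about 1 unit apart.

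Id1, Id2 and Id3 were lower after TGF-b1 in Snail1-WT cells by more than 3 noise SDs each, and none of them was in Snail1-KO cells, a difference that 1 array per group leaves untested. Id4, at -0.10 in Snail1-WT cells, lay within the noise SD of 0.19. The median difference of the 4 was -0.57 there, against -0.01 over all 22180 genes. In Snail1-KO cells their median difference was 0.14, against -0.02 over all genes, with Id2 and Id4 above 0 and Id1 and Id3 below it. None was 2-fold apart in either response, where 0.984% and 1.31% of analysed genes were. At 1.5-fold, 2 of 4 (Id1 and Id2) were lower in Snail1-WT cells, beside 1.89% of all analysed genes, and none was apart with the deletion, where 5.14% of analysed genes were, in either direction.

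Id2, the ID gene with the widest range, measured 6.61 in untreated Snail1-WT cells and 5.88 with TGF-b1, against 5.97 in untreated Snail1-KO cells and 6.45 with TGF-b1. The untreated Snail1-WT and the treated Snail1-KO array were thus the high ones, and the remaining pair was low. Its response was -0.73 in Snail1-WT cells (1.66-fold lower) and 0.48 in Snail1-KO cells (1.39-fold higher), with a noise SD of 0.18. The responses (Snail1-KO minus Snail1-WT) were 1.21 apart, with a noise SD of 0.26 for such a difference. Id2 ranked 7 from the top among the 13308 analysed genes and was the only one of the 9 past 2-fold in this measure, beside 0.105% of analysed genes upward and 0.233% downward. The same crossing appears in the genotype difference, which was -0.64 without and 0.56 with TGF-b1. The marker Cebpa, with the values above, was also higher with TGF-b1 in Snail1-KO cells. Of the 5 adipocyte markers 3 were above 0 and 2 below in that response, with a median of 0.06. The 3 above 0 (Cebpa, Pparg and Plin1) were those in the analysed set. The 2 below 0 (Adipoq and Fabp4) were outside it. In Snail1-WT cells Cebpa was higher with TGF-b1 too (5.94 and 6.12), where Id2 was lower. The part of Cebpa in the result was not tested.

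Id1, an ID gene widely used as a readout of BMP signalling, measured 6.27 in untreated Snail1-WT cells and 5.63 with TGF-b1. It was nearly level in Snail1-KO cells, at 5.98 without and 5.97 with TGF-b1. The responses were thus -0.64 and -0.01, at a noise SD of 0.17, and they differed by 0.63, past 1.5-fold upward as in 1.61% of analysed genes. The genotype difference of Id1 was -0.29 without and 0.34 with TGF-b1, or -1.69 and 1.99 noise SDs.

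Id3 measured 6.73 and 6.23 in untreated and treated Snail1-WT cells, and 6.65 and 6.54 in Snail1-KO cells. The treated Snail1-WT array was the low one. Its responses were -0.50 and -0.11, at a noise SD of 0.15, and their difference of 0.39 was 1.79 times the noise SD of such a difference. The genotype difference of Id3 was -0.08 without TGF-b1, which lay within the noise SD, and 0.31 with it. Id4 behaved otherwise. It measured 6.08 and 5.98 in Snail1-WT cells and 5.56 and 5.85 in Snail1-KO cells, so the untreated Snail1-KO array was the low one. Its responses of -0.10 and 0.30 were -0.518 and 1.57 noise SDs, and its genotype difference was -0.52 without and -0.13 with TGF-b1.

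Atoh8, a bHLH factor gene known to respond to both BMP and TGF-b, was higher with TGF-b1 by a like amount in both genotypes. It measured 7.28 and 8.22 in untreated and treated Snail1-WT cells, and 6.64 and 7.68 in Snail1-KO cells. Both treated arrays were above both untreated ones, and within each treatment Snail1-KO was the lower. The responses were 0.94 (1.92-fold) and 1.04 (2.06-fold), at a noise SD of 0.13, so that Atoh8 was past 2-fold in Snail1-KO cells, as were 0.999% of analysed genes upward, and just short of it in Snail1-WT cells, where 0.714% were. The responses differed by 0.10, which is 0.54 noise SDs. The genotype difference was -0.64 without and -0.54 with TGF-b1.

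Bmp4, which encodes a ligand made by stromal cells, had the largest response of the 9 genes. It measured 7.65 in untreated and 5.64 in treated Snail1-WT cells, and 6.84 and 5.07 in Snail1-KO cells. Both treated arrays were below both untreated ones, and in each treatment the Snail1-KO array was the lower. Bmp4 was 4.04-fold lower with TGF-b1 in Snail1-WT cells and 3.40-fold lower in Snail1-KO cells, at a noise SD of 0.17, and was the only one of the 9 genes at least 2-fold lower in either response, beside 0.271% and 0.308% of analysed genes. From the bottom it ranked 2 and 4 of 13308. Both responses, which share no array, were at least 2-fold lower in 20 genes, or 0.150% of those analysed. The genotype difference of Bmp4 was -0.81 without TGF-b1 and -0.57 with it, or -4.81 and -3.34 noise SDs. The responses differed by 0.25, which is 1.04 noise SDs of such a difference.

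Bmp2, the other ligand gene, was below the analysed set, with levels of 3.97 and 3.85 in Snail1-WT cells and 3.63 and 3.74 in Snail1-KO cells. Its differences between arrays ran from -0.34 to 0.11, or from -1.52 to 0.487 noise SDs. At so low a level neither presence nor absence of Bmp2 RNA can be read from the arrays.

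**Figure D2:**
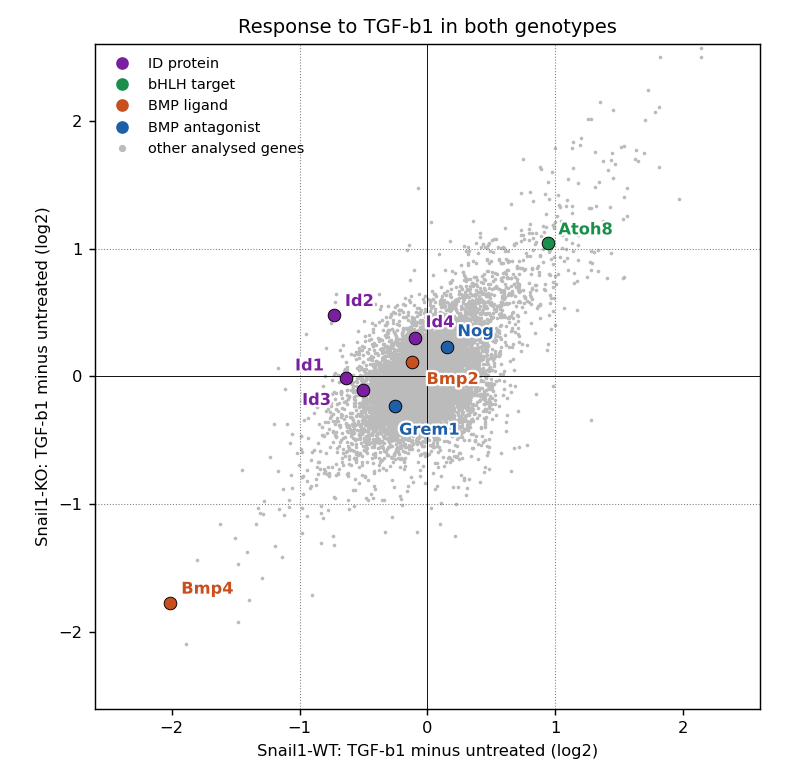
Difference TGF-b1 minus untreated on the log2 scale in Snail1-WT cells (x axis) and in Snail1-KO cells (y axis), with the 9 genes in colour by role and the other analysed genes in grey; dotted lines mark 2-fold, and 7 genes lie outside the axes. Bmp4 (-2.01 and -1.77) and Atoh8 (0.94 and 1.04) lie near the diagonal, while Id2 (-0.73 and 0.48) lies in the upper left quadrant.

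The antagonist gene Grem1 set the genotypes apart most. It measured 8.85 and 8.61 in untreated and treated Snail1-WT cells, and 9.91 and 9.68 in Snail1-KO cells, so both Snail1-KO arrays were above both Snail1-WT arrays. The difference was 1.05 (2.08-fold) without TGF-b1 and 1.08 (2.11-fold) with it, which is 12.6 and 12.9 times the noise SD of 0.08. No other of the 9 was 2-fold apart between the genotypes. Among analysed genes 0.827% were that much higher and 0.744% that much lower without TGF-b1, 1.07% higher and 0.631% lower with it, and 0.556% higher in both pairs. Grem1 ranked 93 and 117 from the top. A difference between the cell populations that has nothing to do with Snail1 would also appear in both pairs, so the recurrence is no replication of an effect of the deletion. The osteoblast marker Alpl, with the values above, also differed between the genotypes in both pairs. Of the osteoblast list, 3 of 5 markers were above 0 in untreated cells, with a median of 0.18. With TGF-b1, 1 of 5 was above 0 and the median was -0.20. Of the 5 only Alpl was in the analysed set, so the signs of the others cannot show whether the list shared its direction. The part of Alpl in the result was not tested. The responses of Grem1 to TGF-b1 were -0.25 and -0.23, or -2.95 and -2.7 noise SDs.

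Nog, the other antagonist gene, went the other way from Grem1. It measured 5.08 and 5.23 in Snail1-WT cells but 4.42 and 4.65 in Snail1-KO cells, close to the lowest mean of the analysed genes. Its genotype difference was -0.66 without and -0.58 with TGF-b1, at a noise SD of 0.21. Its mean of 4.85 passed the limit of 4.51, but its untreated Snail1-KO level of 4.42 was below that limit, so the size of this difference is uncertain. Its responses to TGF-b1 of 0.15 and 0.23 were 0.725 and 1.07 noise SDs.

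**Figure D3:**
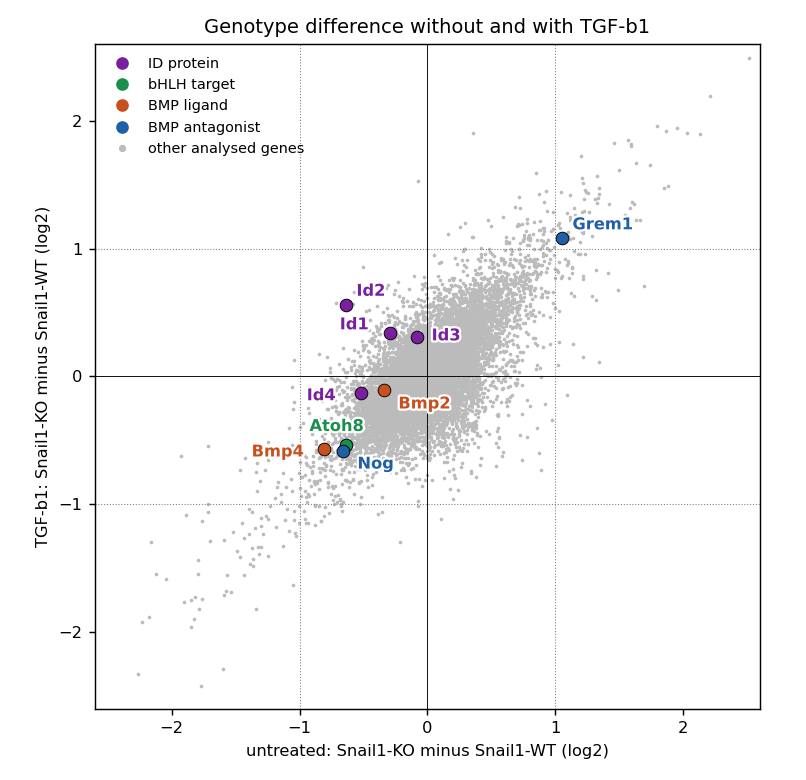
Difference Snail1-KO minus Snail1-WT on the log2 scale in untreated cells (x axis) and in cells given TGF-b1 (y axis), with the 9 genes in colour by role and the other analysed genes in grey; dotted lines mark 2-fold, and 4 genes lie outside the axes. Grem1 (1.05 and 1.08) is past 2-fold on both axes, and Bmp4, Atoh8 and Nog lie below 0 on both. Id1, Id2 and Id3 are below 0 without and above 0 with TGF-b1. The value of Id3 without TGF-b1, -0.08, lies within its noise SD of 0.15.

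Over the 9 genes, 8 were lower in untreated Snail1-KO than in untreated Snail1-WT cells, Grem1 being the exception, with a median difference of -0.52 against 0.01 over all genes. These 8 include Bmp2, which was outside the analysed set, and Id3, whose -0.08 lay within its noise SD of 0.15. At 1.5-fold, 4 (Id2, Atoh8, Bmp4 and Nog) were lower, where 3.13% of analysed genes were. Nog measured 4.42 in untreated Snail1-KO cells, below 4.51, the lowest mean of the analysed genes, so its place in this count is uncertain. With TGF-b1, 5 of the 9 were lower and the median was -0.11 against -0.02 over all genes. The genotype differences without and with TGF-b1 share no array. The median response over the 9 was -0.25 in Snail1-WT cells and 0.11 with the deletion. The difference between the responses (Snail1-KO minus Snail1-WT) was above 0 for all 9 genes, from 0.02 (Grem1, which turned to -0.00 with cyclic loess) to 1.21 (Id2), with a median of 0.25 against 0.00 over all genes. All 9 values rest on the same 4 arrays and are not independent of each other. The untreated genotype difference and the response of Snail1-WT cells share the untreated Snail1-WT array, which also enters the difference between the responses. A deviation of that array alone would move all of these, so they are not separate results.

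Genes whose levels over the 4 arrays were most like those of Id1, Bmp4 and Grem1 were found by the Euclidean distance between profiles, each centred on its own mean, among the analysed genes. With 4 arrays such likeness is a description. For Id1 they were Trerf1 (distance 0.07), Spata7 (0.08), Cnnm2 (0.09) and Thap6 (0.10), with responses between -0.73 and -0.63 in Snail1-WT cells and between -0.12 and 0.08 with the deletion. For Grem1 they were Ctsh, which encodes the lysosomal protease cathepsin H (0.04), Lynx1 (0.08), Tspan17 (0.11) and Sgcb (0.11), whose genotype differences lay between 0.93 and 1.16. For Bmp4 none was that near. The 4 nearest were Adm (0.49), which encodes adrenomedullin, Osr1 (0.54), Lbh (0.67) and Mab21l2 (0.72), with responses between -1.89 and -1.19 in Snail1-WT and between -2.09 and -1.15 in Snail1-KO cells.

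Of 60 other genes of the pathway 56 were measured by a probe set of their own, and 45 of these were in the analysed set. The probe sets of Rgma, Dand5 and Msx1 carry another symbol too, and Runx2 is not named in the annotation used, so these 4 were left out. After TGF-b1, 4 of the 45 were at least 2-fold higher in Snail1-WT cells and 5 with the deletion, beside 0.714% and 0.999% of all analysed genes, while none was 2-fold lower in either, where 0.271% and 0.308% were. Their median response over all 56 was 0.08 and 0.06. None of the 45 was 2-fold apart between the genotypes in either pair, where 1.57% and 1.7% of analysed genes were.

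Among the SMADs the inhibitors led. Smad6, whose product restrains mainly BMP receptors, measured 6.11 and 7.25 in Snail1-WT and 5.54 and 7.37 in Snail1-KO cells. Its response was 1.14 and 1.84, and the 0.70 between them was 3.14 noise SDs. Smad7, the inhibitor of both branches, measured 6.37 and 7.89 in Snail1-WT and 5.85 and 7.65 in Snail1-KO cells, with responses of 1.51 and 1.80. Smad9, which encodes one of the BMP-activated SMADs, measured 4.86 and 5.84 against 4.47 and 5.65, and its responses were 0.98 and 1.18. Its untreated Snail1-KO level was below 4.51, the lowest mean of the analysed genes, so the size of its increase there, and with it the 2-fold call, is uncertain. For all 3 both treated arrays were above both untreated ones. Smad5 was higher with TGF-b1 by 0.41 and 0.27, Smad1 by 0.06 and 0.28, and Smad4, the partner shared by both branches, differed by 0.06 and -0.03.

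Of 15 measured extracellular antagonists and modulators 12 were in the analysed set, and 2 of these were 2-fold higher in each response, beside the same 0.714% and 0.999% of analysed genes. Fstl3, whose product binds activins and some BMPs, measured 7.17 and 8.81 in Snail1-WT and 6.82 and 8.50 in Snail1-KO cells, so its responses were 1.64 and 1.69. Nbl1, an antagonist of the same family as gremlin, measured 6.43 and 7.48 against 6.42 and 7.64, with responses of 1.04 and 1.22. The genotype difference of Nbl1 was -0.01 and 0.16. Crim1, a membrane protein that binds BMPs, had genotype differences of -0.56 and -0.56, which are -6.8 and -6.78 noise SDs, and Fstl1 had 0.02 and 0.08. Fst, encoding the activin and BMP binding protein follistatin, differed between the genotypes by -0.74 and -0.52, and Bmper by -0.68 and -0.43.

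Of the 10 measured receptors and co-receptors none was 2-fold apart in any comparison, beside 0.338% to 1.7% of analysed genes. The type 2 receptor gene Bmpr2 was higher with TGF-b1 by 0.58 and 0.52, at a noise SD of 0.08, and the type 1 receptor gene Acvr1 by 0.71 and 0.80. The co-receptor gene Eng differed by 0.05 and 0.22, and Bmpr1a by -0.03 and -0.08. The other ligand genes were low. Of 12 measured, 7 were in the analysed set, and none was 2-fold apart, beside the same 0.338% to 1.7% of analysed genes. Bmp3 measured between 4.80 and 4.92 on the 4 arrays and Gdf5 between 4.80 and 5.20.

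Transcription factor genes known as BMP targets showed no common direction. In the response of Snail1-WT cells 6 of 10 measured were above 0 and 4 below. None was 2-fold apart in any pair, beside 0.984% to 1.7% of analysed genes. Dlx5, an osteogenic homeobox gene, was higher with TGF-b1 by 0.63 and 0.89, and its genotype difference was 0.36 and 0.62. Tbx3 was higher with TGF-b1 by 0.69 and 0.55, with genotype differences of -0.46 and -0.60, and those of Gata2 were -0.13 and -0.10. Of the 3 E protein genes, whose products the ID proteins bind, none was 1.5-fold apart in any pair. At that limit 4.37% to 8.14% of analysed genes were apart. Tcf3 differed by -0.11 and -0.25 with TGF-b1, Tcf4 by -0.22 and -0.23 and Tcf12 by -0.02 and -0.03.

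**Figure D4:**
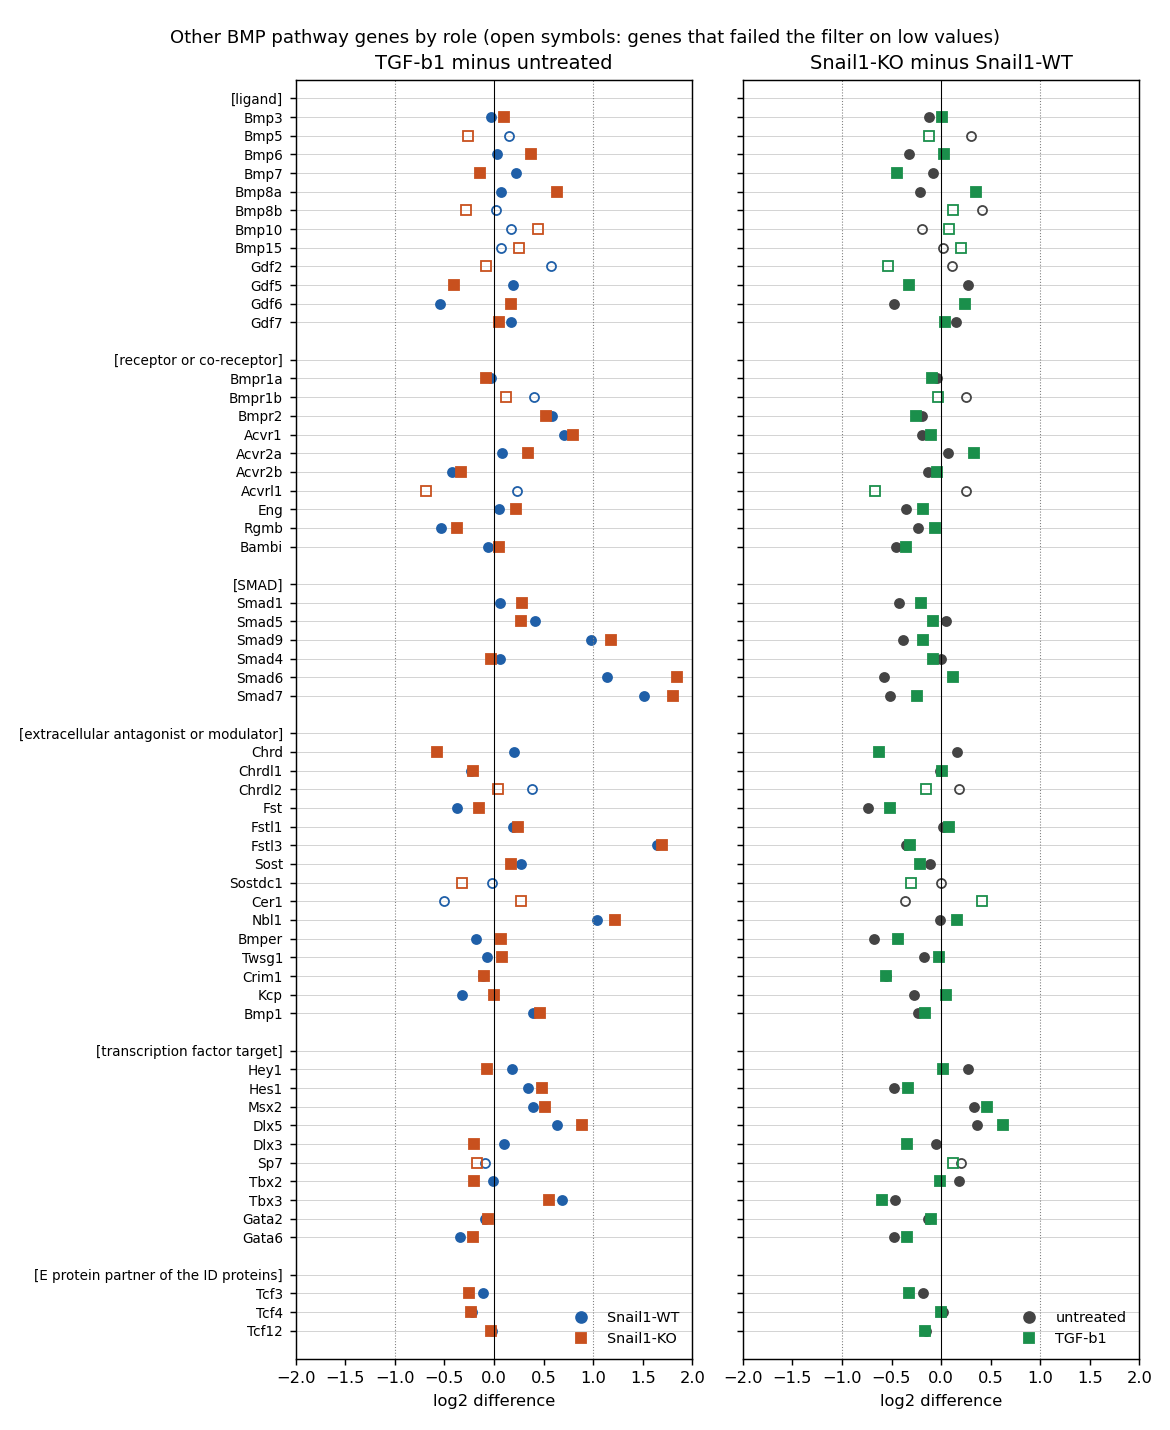
Log2 differences of the 56 other measured BMP pathway genes by role, left TGF-b1 minus untreated in Snail1-WT (blue circles) and Snail1-KO cells (orange squares), right Snail1-KO minus Snail1-WT in untreated cells (dark circles) and with TGF-b1 (green squares), 1 array per level and no error bars. Filled symbols are genes in the analysed set and dotted lines mark 2-fold; Smad6, Smad7, Fstl3 and Nbl1 are past 2-fold on the left in both genotypes, Smad9 in Snail1-KO cells (from a level below 4.51, so of uncertain size), and no filled symbol is past 2-fold on the right.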

How the data were processed

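Per the labels' protocols, RNA of 4 samples was labelled with biotin (WT PLUS kit). The log2 values were deposited by the authors after RMA, with R 3.1.1 named in the submitters' processing notes. RMA subtracts background, gives all arrays one distribution and summarises probes, so a shift shared by most genes would be lost. Build and annotation: not given in the sources used here. Array medians lay between 4.58 and 4.63, and the number of arrays limits the precision.

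Of 41345 probe sets, 23521 had 1 gene symbol in the platform annotation. Each of 22180 genes was represented by its brightest probe set. Groups came from the sample titles. Differences between arrays were counted as apart at 2-fold, with 1.5-fold as an alternative. The noise SD is 1.4826 times the median absolute deviation of the difference between the responses, scaled to a single pair of arrays. It was checked on simulated data with independent noise on each array. The simulation held no true differences between the responses, so it could not show how far these enlarge the noise SD. Named pathway genes were those 2-fold apart in any pair and the 2 brightest per role; others in the text were added after their values were seen. Predicted and clone-named transcripts were not named among the genes of like profile. Alternatives were the mean of probe sets, median centring, cyclic loess and other filters. Members and lists were chosen with earlier results of these data known. Python 3.11.15, pandas 2.3.3 and limma 3.58.1 in R 4.3.3 were used.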

Additional observations from a re-analysis of the deposited data

Results flagged for a closer look

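Among the 9 genes and the pathway genes named by the rule, results are listed here where 2 differences of the same kind had opposite signs and each exceeded the noise SD at the level of the gene. With 1 array per group these differences were not tested.

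Id2 was lower with TGF-b1 in Snail1-WT and higher in Snail1-KO cells, so the responses were 1.21 apart. Read as genotype differences without and with TGF-b1, the same 4 values also have opposite signs and are the same 1.21 apart. The genotype difference of Id1 was -0.29 without and 0.34 with TGF-b1, which is 0.63 apart. The genotype difference of Gdf5 was 0.27 without and -0.32 with TGF-b1, so that the second minus the first was -0.59. A dimmer probe set of Gdf5 gave -0.24 and -0.22, without the turn in sign.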

How the results depend on the processing

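The 9 genes were recomputed with the mean of all probe sets, with median centring and with cyclic loess. Of 135 such values none moved by more than the noise SD and the largest move was 0.05. One sign turned, that of the difference of the responses of Grem1 (0.02, and -0.00 with cyclic loess). The counts of genes past 2-fold among the 9 were equal under these settings, without a filter and with the upper 40% of genes. At 1.5-fold they were 4 in place of 1 for the response of Snail1-WT cells, 5 in place of 1 for the untreated genotype difference and 2 in place of 1 for the difference of the responses. The shares of all analysed genes were larger too, at 4.37% in place of 0.984%, 7.15% in place of 1.57% and 3.58% in place of 0.338%. The share of all analysed genes past 2-fold in the difference of the responses was 0.338%, against 0.888% without a filter and 0.0451% in the upper 40%. The mean of probe sets could not alter the 9 genes, which have 1 each. Median centring could shift a difference between 2 arrays by no more than the array medians (4.58 to 4.63) were apart. RMA had already given all arrays one distribution, so these settings had little room to move the values. No paired analysis was possible because each group has 1 array. No array could be left out for the same reason. Signal near background limits Bmp2 and Nog.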
